A study of Mus musculus with 2 samples.

Results

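The genes of branched-chain amino acid breakdown described here are 10 of the 55536 annotated genes in the deposited tables. They were chosen by symbol, for their place in the pathway and not for a measured value, and each symbol matched 1 gene identifier. They comprise the transaminases Bcat1 and Bcat2, the dehydrogenase subunits Bckdha, Bckdhb and Dbt, the kinase Bckdk and phosphatase Ppm1k that control the dehydrogenase, and Ivd, Mccc1 and Pcca of the later steps. They were measured in the heart at 14 days of age in B6CASTF1/J males, F1 animals of a cross between the inbred strains C57BL/6J and CAST/EiJ. The mice carried no allele or treatment named in the labels. The assay was stranded sequencing of total RNA depleted of ribosomal RNA, from 300 ng of RNA plus ERCC spike-ins, in 2 libraries (replicates 1 and 2) that form 1 group. The labels mention 3 males and repeat 1 donor label for both libraries, without stating whether animals were pooled, so the spread between the libraries may be partly technical.

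Leucine, isoleucine and valine are first stripped of their amino group by a branched-chain transaminase, which is mitochondrial (Bcat2) or cytosolic (Bcat1). The resulting keto acids are decarboxylated by the branched-chain keto acid dehydrogenase, a mitochondrial complex built from an E1 enzyme (subunits Bckdha and Bckdhb), the E2 core (Dbt) and the E3 enzyme Dld, which other complexes share. This committed step is switched off when Bckdk phosphorylates E1 and switched on when Ppm1k removes the phosphate, and the 3 keto acids then follow separate routes to acetyl-CoA, acetoacetate or propionyl-CoA. Muscle tissues, the heart among them, are known for high transaminase activity, and the pathway is a minor source of fuel for the heart.

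The libraries held 39334380 and 46391250 expected counts, of which the 96 spike-ins took 0.517% and 0.531%. All 7 cardiomyocyte markers were detected, with a median level of 5454 and 5655 TPM (a level per transcript length, scaled to a fixed total per library), and no liver or skeletal muscle marker reached 1 TPM in both libraries. The libraries differed in markers of the atria, the thymus, T cells and brown adipocytes. The 4 atrial markers had a median of 358 TPM in replicate 1 and 119.6 in replicate 2, the 5 thymus markers 0.0200 and 5.89, and the 5 T cell markers 0.210 and 4.81. The 5 brown adipocyte markers had a median of 4.19 and 2.04 TPM. Among them, Ucp1 was at 9.76 and 0.320 TPM and Cidea at 25.8 and 22.6. In bulk tissue, fewer cells of a type and less RNA per cell cannot be told apart.

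Of the 10 genes, 9 were at 1 TPM or more in both libraries, against 51.8% of the 22028 annotated protein-coding genes. Their median level was 23.9 TPM in replicate 1 and 25.0 in replicate 2 (24.4 ± 0.792, SD, n = 2), while protein-coding genes detected in both libraries had medians of 9.72 and 9.96 TPM. The order by mean level was Ivd, Bckdha, Bckdk, Bcat2, Mccc1, Pcca, Bckdhb, Ppm1k, Dbt and Bcat1. Bckdk and Bcat2 overlapped in their ranges over the libraries, as did Mccc1 and Pcca, which changed places between them. No other neighbours in this order overlapped. On protein-coding transcripts alone, Bckdhb (15.8 and 17.4 TPM) came before Mccc1 (15.5 in both libraries) and Pcca (16.2 and 14.7) by mean level. The ranges of Bckdhb and Pcca then overlapped.

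**Figure D1:**
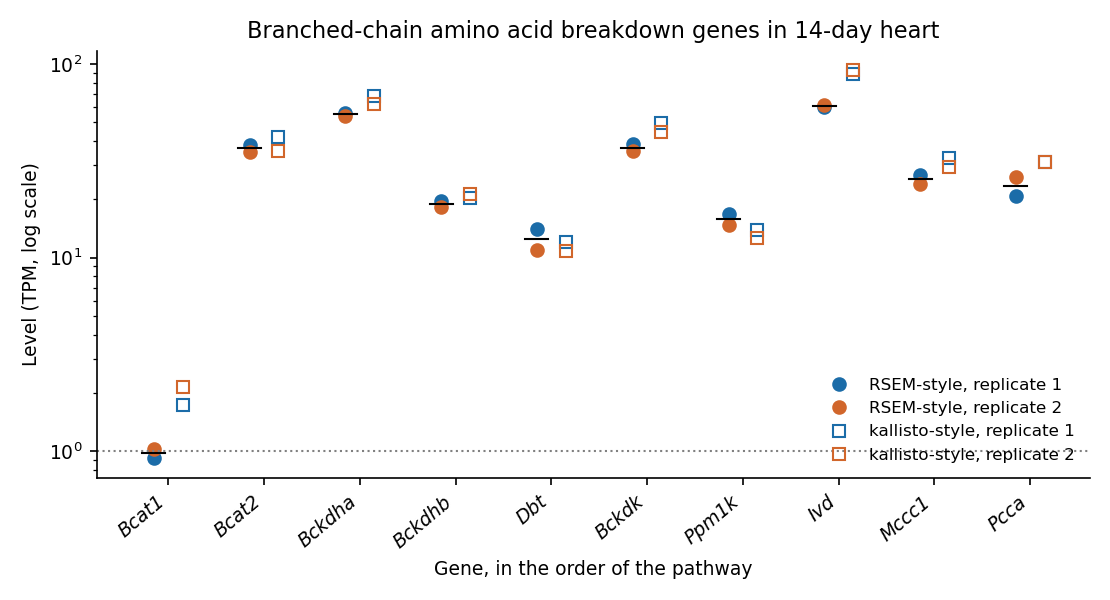
Level of each gene (TPM, log scale) in replicate 1 (blue) and replicate 2 (orange), from the RSEM-style gene tables (filled circles, with a line at their mean) and the kallisto-style transcript tables summed per gene (open squares); the dotted line marks 1 TPM. Ivd and Bckdha were highest, at 60.8 and 55.0 TPM on average in the RSEM-style tables, and Bcat1 was the lowest in both tables.

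The transaminase RNA was almost entirely Bcat2. Bcat2 (ENSMUSG00000030826.19, mm10 chr7:45570153-45589711, plus strand), the mitochondrial enzyme, was at 38.3 and 35.1 TPM in replicates 1 and 2 (36.7 ± 2.31, SD, n = 2), from 1480 and 1657 expected counts. Bcat1 (ENSMUSG00000030268.17, chr6:144993835-145076184, minus strand), the cytosolic enzyme, was at 0.920 and 1.03 TPM (0.975 ± 0.0778) from 69 and 103 expected counts. Counting error alone gave Bcat1 95% intervals of 0.716 to 1.16 and 0.841 to 1.25 TPM, so its place on either side of 1 TPM was not resolved at this depth. The log2 ratio of Bcat2 over Bcat1, on log2(TPM + 0.1), was 5.24 and 4.96 (5.10 ± 0.19, n = 2), or 34.2-fold. With 2 libraries an exact sign permutation test cannot give a 2-sided p below 0.5, so this ratio and those that follow are described and not tested. In the kallisto-style tables Bcat1 was at 1.73 and 2.14 TPM, and the log2 ratio was 4.26, which is the same direction and a smaller distance.

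Bcat2 RNA was spread over several transcripts. The leading one, Bcat2-201, took 44.6% and 38.8% of the gene's TPM in the RSEM-style tables and 73.9% and 89.5% in the kallisto-style tables. The second protein-coding form, Bcat2-202, has a later annotated start and lacks 15 coding bases at the start of exon 5. These junctions are shown because the tables divided the reads between the forms differently. The sequences below are the last 20 bases of exon 4 (chr7:45585008-45585027) followed by exon 5 up to position 45585145, from the GENCODE M21 transcripts. Capitals mark the 15 bases that Bcat2-201 has and Bcat2-202 lacks at this junction, and other Bcat2 transcripts were not compared. Exon 5 begins at 45585111 in Bcat2-201 and at 45585126 in Bcat2-202.
Bcat2-201: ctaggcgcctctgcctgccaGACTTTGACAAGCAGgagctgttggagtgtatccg
Bcat2-202: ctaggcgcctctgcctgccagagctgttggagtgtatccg
The RSEM-style tables placed Bcat2-201 at 17.1 and 13.6 TPM and Bcat2-202 at 5.05 and 7.93 TPM. The kallisto-style tables placed Bcat2-201 at 31.2 and 31.7 TPM and Bcat2-202 at 0 in both libraries. The sum of both forms was steadier between the libraries than either form by the RSEM-style tables, at 22.1 and 21.5 TPM. Bcat2-204, a transcript annotated as subject to nonsense-mediated decay, took another 10.1 and 7.29 TPM in the RSEM-style tables and 4.89 and 0.554 TPM in the kallisto-style tables. Of the 31-base words of Bcat2-201, 12.6% also occur in 0610005C13Rik on the opposite strand, which was at 0.0400 and 0.0600 TPM.

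The subunits of the dehydrogenase were at unequal RNA levels, with Bckdha above Bckdhb and Bckdhb above Dbt in both libraries. Bckdha (ENSMUSG00000060376.7, chr7:25629946-25658981, minus strand), the E1 alpha subunit that carries the phosphorylation sites, was at 56.0 and 54.0 TPM (55.0 ± 1.38, n = 2). Bckdhb (ENSMUSG00000032263.14, chr9:83925145-84124240, plus strand), the E1 beta subunit, was at 19.7 and 18.3 TPM (19.0 ± 1.01). Dbt (ENSMUSG00000000340.10, chr3:116513070-116549981, plus strand), the E2 core that transfers the acyl group to coenzyme A, was at 14.0 and 11.0 TPM (12.5 ± 2.09). The alpha subunit exceeded the beta subunit by 1.53 ± 0.04 log2 units (n = 2), or 2.89-fold, although the E1 enzyme holds them in equal numbers. Bckdha exceeded Dbt by 1.99 and 2.28 log2 units (2.14 ± 0.20, 4.40-fold). Bckdhb exceeded Dbt by 0.49 and 0.72 (0.61 ± 0.16), and this order turned to -0.43 when expected counts were not divided by length.

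A limit applies to Bckdha. Of the 31-base words in its leading transcript, 55.4% also occur in B3gnt8, a protein-coding gene on the opposite strand. B3gnt8 was at 1.87 and 2.00 TPM from 104 and 144 expected counts, against 3007 and 3276 for Bckdha. The strand setting used in counting is not given in the sources used here, and reads of the pair could not be told apart without it. Bckdha was the 1 gene of the 10 with no noncoding transcript: Bckdha-201 took 96.1% and 87.3% of its TPM and the shorter coding Bckdha-202 the rest.

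For Bckdhb the tables disagreed on the leading transcript. Bckdhb-201 and Bckdhb-206 are the same sequence except that Bckdhb-206 starts 5 bases earlier, at 83925145 in place of 83925150, and that its coding sequence is annotated from 83925170 in place of 83952538. The RSEM-style tables gave Bckdhb-201 12.3 and 15.1 TPM and Bckdhb-206 0.640 and 0 TPM, whereas the kallisto-style tables gave Bckdhb-201 6.43 and 1.41 TPM and Bckdhb-206 12.6 and 18.8 TPM. The sum of both was 13.0 and 15.1 TPM (65.7% and 82.4% of the gene) in the former and 19.0 and 20.2 TPM (93.7% and 94.4%) in the latter. The pair together was thus the main product in both tables, while the split between its forms was not resolved. Another coding form, Bckdhb-205, has a first exon of its own that starts at 83948781, and took 14.6% and 12.5% of the gene's TPM in the RSEM-style tables and 6.32% and 5.61% in the kallisto-style tables.

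The start regions of these forms are shown because the RNA levels of forms with separate starts differ. Each is 250 bases before to 50 bases after a start site, plus strand, from RefSeq on GRCm38.p6, with every CG dinucleotide in capitals. The upstream one, chr9:83924887-83925186, is placed on a RefSeq start at 83925137 and also holds the GENCODE starts of Bckdhb-201 and Bckdhb-206. The downstream one, chr9:83948531-83948830, is placed on the start of Bckdhb-205.
Upstream start: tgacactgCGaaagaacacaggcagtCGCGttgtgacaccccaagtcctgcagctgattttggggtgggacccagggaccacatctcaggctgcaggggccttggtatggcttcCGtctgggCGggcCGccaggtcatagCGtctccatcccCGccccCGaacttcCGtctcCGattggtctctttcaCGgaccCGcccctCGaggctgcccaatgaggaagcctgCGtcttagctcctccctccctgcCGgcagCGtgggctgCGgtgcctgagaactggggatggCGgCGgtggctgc
Downstream start: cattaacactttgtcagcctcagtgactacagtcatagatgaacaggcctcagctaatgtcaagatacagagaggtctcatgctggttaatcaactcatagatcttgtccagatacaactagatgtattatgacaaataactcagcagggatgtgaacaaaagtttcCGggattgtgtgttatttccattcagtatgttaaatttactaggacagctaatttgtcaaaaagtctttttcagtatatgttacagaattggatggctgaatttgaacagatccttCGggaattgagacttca
The letters CG, which read the same on both strands, occur 20 times in the upstream region and 2 times in the downstream one. Of the 32851 promoters in the RefSeq table, 26.5% hold at least 20 and 85.9% at least 2, with a median of 7. The table held 13 promoters of 9 of the genes. Among these, the downstream Bckdhb region held the fewest CG dinucleotides, and the next lowest was a Bcat1 promoter with 6. Only a Pcca promoter, with 21, held more than the upstream Bckdhb region. Bckdhb-201 and Bckdhb-206 summed, which start in the CG-rich region, were above Bckdhb-205 in both tables, and this describes the letters and not a cause.

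The kinase was above the phosphatase. Bckdk (ENSMUSG00000030802.14, chr7:127904082-127910221, plus strand), which inactivates the dehydrogenase, was at 38.4 and 35.6 TPM (37.0 ± 2.02, n = 2). Ppm1k (ENSMUSG00000037826.5, chr6:57506502-57535468, minus strand), which reactivates it, was at 16.7 and 14.8 TPM (15.8 ± 1.28). Bckdk exceeded Ppm1k by 1.20 and 1.26 log2 units (1.23 ± 0.04, 2.34-fold), and by 1.82 in the kallisto-style tables. The difference in level rests on the length of the transcripts: the expected counts of the genes were 1994 and 2172 for Bckdk and 2013 and 2098 for Ppm1k, a log2 ratio of 0.02. Relative to its substrate Bckdha, Bckdk had a log2 ratio of -0.57 ± 0.04 and Ppm1k one of -1.80 ± 0.08.

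Part of the Ppm1k level came from a very short transcript. Ppm1k-202, an annotated noncoding transcript of 264 bases, held 21.6 and 22.8 expected counts but 25.6% and 25.3% of the gene's TPM, because TPM divides by length. The kallisto-style tables put it at 0, and the coding transcripts alone were at 12.4 and 11.1 TPM. For Bckdk, the tables differed on the coding transcript Bckdk-204, at 0.600 and 0.700 TPM in the RSEM-style tables and 17.8 and 14.1 TPM in the kallisto-style tables. Bckdk-202 led in both, with 63.1% and 58.4% of the gene's TPM by the RSEM-style tables.

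Of the 3 genes of the later steps, Ivd was at the highest level and Pcca varied most between the libraries. Ivd (ENSMUSG00000027332.11, chr2:118861954-118882909, plus strand), isovaleryl-CoA dehydrogenase of the leucine route, was at 60.2 and 61.5 TPM (60.8 ± 0.891, n = 2), above 91.2% and 91.3% of detected protein-coding genes. Mccc1 (ENSMUSG00000027709.9, chr3:35959312-36000678, minus strand), the biotin-carrying subunit of the next leucine enzyme, 3-methylcrotonyl-CoA carboxylase, was at 26.8 and 24.0 TPM (25.4 ± 1.99). Pcca (ENSMUSG00000041650.15, chr14:122534324-122891100, plus strand), the biotin-carrying subunit of propionyl-CoA carboxylase at the end of the valine and isoleucine routes, was at 20.9 and 26.0 TPM (23.5 ± 3.58). Pcca was higher in replicate 2 by level, with no detectable difference by counts: its expected counts were 1326 and 1555 in libraries of unequal depth, and its average effective length in the gene table was 2069 bases in replicate 1 and 1631 in replicate 2. The short transcripts Pcca-212 and Pcca-213, neither annotated as protein-coding, went from 1.44 to 5.63 TPM and from 2.15 to 4.92 TPM, and both were at 0 in the kallisto-style tables, where Pcca was at 31.1 and 31.2 TPM. Pcca overlaps Ggact on the opposite strand (10.7 and 9.22 TPM), although its leading transcript shares no 31-base word with another gene, and 9.86% of the words of Mccc1-201 also occur in the antisense genes Gm15952 and Mccc1os, which were below 1 TPM.

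Transcripts not annotated as protein-coding held a large share of the TPM of these later genes, and a smaller share of their counts. For Ivd they took 43.1% and 48.3% (45.7 ± 3.66%) in the RSEM-style tables and 60.7% and 64.2% in the kallisto-style tables, mostly in the processed transcripts Ivd-207 and Ivd-206. Ivd-201, the 1 coding transcript of the gene, was at 34.2 and 31.8 TPM, and on coding transcripts alone Ivd came second to Bckdha. By expected counts their share of Ivd was 12.4% (95% exact binomial interval 11.4 to 13.4%) in replicate 1 and 15.0% (14.0 to 16.0%) in replicate 2, since short transcripts weigh more per count in TPM. For Mccc1 the noncoding share was 42.3% and 35.5% in the RSEM-style tables, made up of retained-intron and nonsense-mediated-decay forms, and for Pcca it was 22.4% and 43.6%. By expected counts it was 35.6% (33.4 to 37.9%) and 33.6% (31.6 to 35.7%) for Mccc1, close to the share of TPM. For Pcca it was 6.56% (5.29 to 8.03%) and 13.8% (12.1 to 15.6%), far below the share of TPM. These intervals do not cover the assignment of reads to transcripts. In the kallisto-style tables the noncoding share of TPM was 37.6% and 29.5% for Mccc1. For Pcca it was 42.6% and 42.8% there, without the difference between libraries. Bckdha had no noncoding share. Dbt had one of 20.3% and 18.8% in the RSEM-style tables and none in the kallisto-style ones, and every other gene lay below Ivd. In all, the genes have 69 annotated transcripts, 33 of them protein-coding, and 44 had a TPM above 0 in both libraries. The leading transcript was the same in both kinds of table for 8 of the 10 genes, with Bcat1 and Bckdhb as the exceptions.

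**Figure D2:**
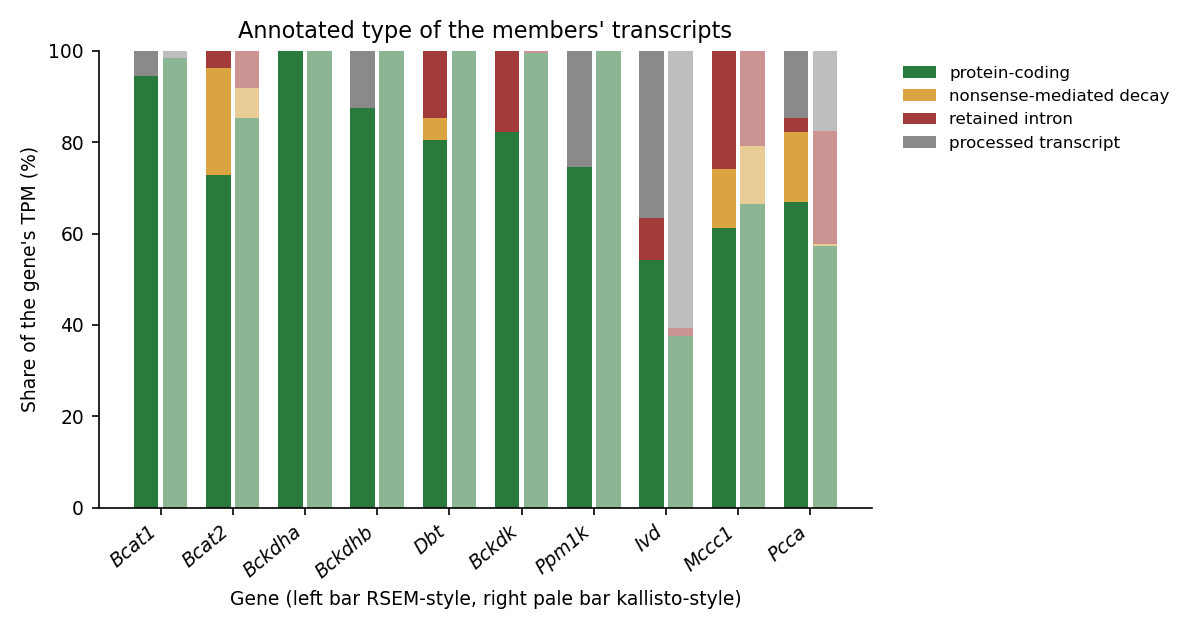
Share of each gene's TPM (%) by the annotated type of its transcripts, as the mean of the 2 libraries, in the RSEM-style tables (left, full colour) and the kallisto-style tables (right, pale). Bckdha was coding throughout, while transcripts of other types took 45.7% of Ivd in the RSEM-style tables and 62.4% in the kallisto-style tables.

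Partner subunits and further enzymes of the pathway were detected throughout. All 19 other pathway enzymes on the list were detected, with a median of 41.0 and 38.0 TPM. The leucine route held Mccc2, the partner of Mccc1, at 20.4 and 20.6 TPM, and the hydratase Auh at 37.4 and 38.0. Mccc1 exceeded Mccc2 by 0.31 ± 0.12 log2 units, but on coding transcripts alone it was lower, at -0.31. Pcca was below its partner Pccb, at 36.6 and 36.5 TPM, by 0.80 and 0.49 log2 units (-0.64 ± 0.22). Ivd was above the other acyl-CoA dehydrogenases listed for this pathway. It exceeded Acadsb of the isoleucine route by 0.60 ± 0.07 log2 units and Acad8 of the valine route by 1.44 ± 0.06. Acyl-CoA dehydrogenases outside the pathway were not compared. On coding transcripts alone, the distance to Acadsb was larger (2.50), as was that of Pcca to Pccb (-1.23).

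On the valine route, Acad8 was at 22.9 and 21.9 TPM, the hydrolase Hibch at 28.7 and 28.5, and the dehydrogenases Hibadh at 76.3 and 77.0 and Aldh6a1 at 44.5 and 37.3. On the isoleucine route, Acadsb was at 41.0 and 39.1 TPM, the dehydrogenase Hsd17b10 at 70.0 and 66.9, and the thiolase Acat1 at 132 and 128. Among shared and propionate steps, Dld was highest (166 and 165 TPM) and Hlcs, which attaches biotin to the carboxylases, was lowest (2.64 and 2.58 TPM). The transporters and regulators were lower than the enzymes, with a median of 4.56 and 4.06 TPM and 7 of 8 detected. Slc3a2, the heavy chain of amino acid exchangers, was highest of these at 17.9 and 20.9 TPM, and Slc6a15, a neutral amino acid transporter, was lowest at 0.130 and 0.120 TPM.

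**Figure D3:**
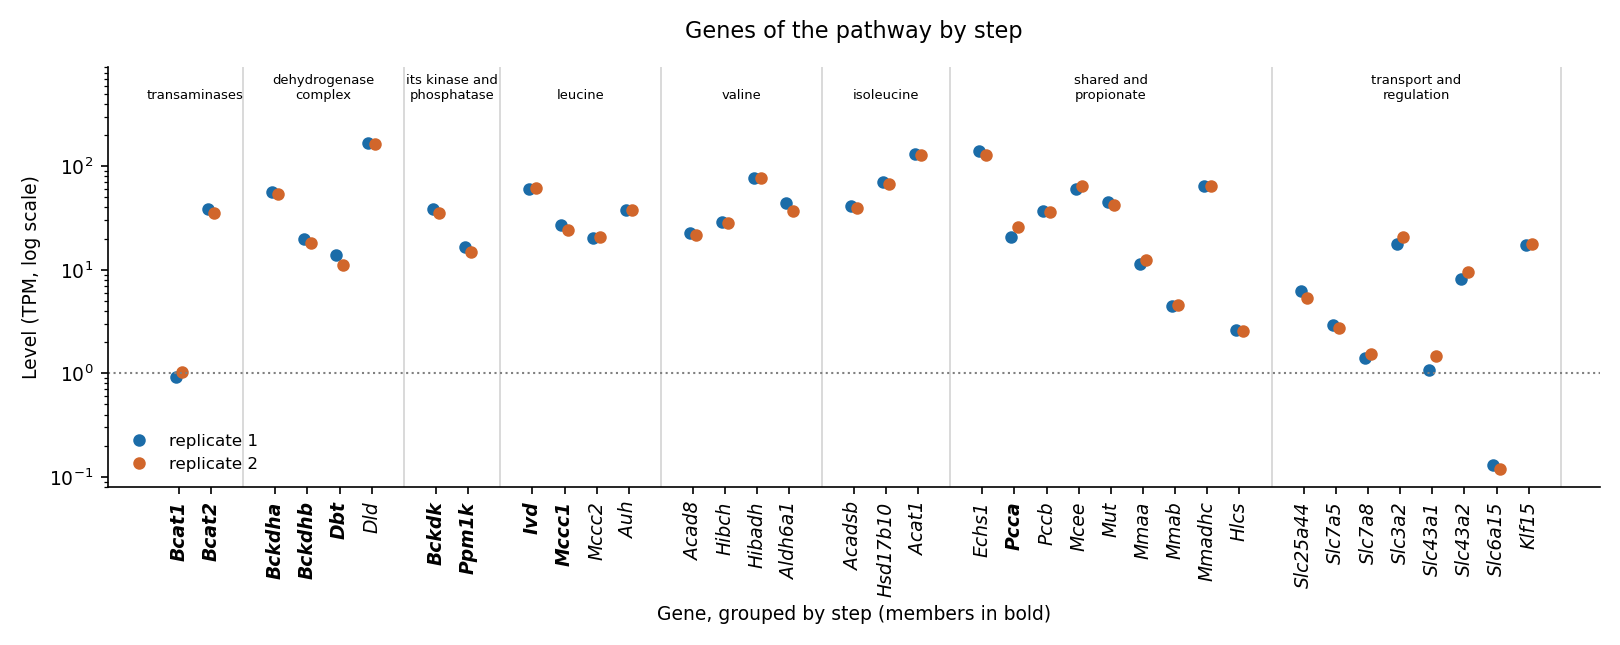
Level (TPM, log scale) of the 10 genes (bold) and 26 other listed pathway genes in replicates 1 and 2, grouped by step, with a dotted line at 1 TPM. Bcat1 and Slc6a15 were the genes not at 1 TPM or more in both libraries, and the highest levels were those of Dld, Echs1 and Acat1.

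The E1 and E2 genes of the branched-chain dehydrogenase were at lower levels than their counterparts in the related complexes, Ogdhl excepted. The pyruvate dehydrogenase links glycolysis to the citric acid cycle, and the oxoglutarate dehydrogenase is part of that cycle. Bckdha was 7.91-fold below Pdha1 (436 and 436 TPM), with log2 ratios of -2.96 and -3.01. Bckdhb was 19.6-fold below Pdhb (376 and 371 TPM), with log2 ratios of -4.25 and -4.33. Dbt was 13.3-fold below Dlat (163 and 169.6 TPM) and 23.6-fold below Dlst (298 and 293 TPM), the E2 cores of the other complexes. These distances were larger than the spread between the libraries, which was 0.28 log2 units (SD) or less for these pairs. In the kallisto-style tables Dbt was farther below, at -4.99 against Dlat and -5.43 against Dlst. Pdhx, which binds E3 to the pyruvate complex, was at 69.0 and 71.1 TPM, Ogdh, the oxoglutarate E1, at 629 and 634, and its relative Ogdhl at 17.2 and 15.8. Dld, the E3 used by all of them, exceeded Dbt by 3.72 ± 0.23 log2 units, or 13.2-fold, and by 4.36 in the kallisto-style tables.

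The kinase of the complex was below Pdk1, Pdk2 and Pdk4 of the pyruvate complex, and above Pdk3. Bckdk was 3.44-fold below Pdk2 (133 and 122 TPM) and 10.7-fold below Pdk4 (373 and 425 TPM), which are pyruvate dehydrogenase kinases. Of the other kinases of that complex, Pdk1 was at 43.3 and 43.9 TPM and Pdk3 at 3.27 and 3.02 TPM. On coding transcripts alone, Bckdk (30.7 and 30.1 TPM) was about level with Pdk1 (30.5 and 29.8 TPM). Ppm1k exceeded the pyruvate dehydrogenase phosphatase Pdp1 (12.4 and 11.2 TPM) by 0.41 ± 0.01 log2 units, and was level with it, at -0.01, on coding transcripts alone. Pdp2 was at 6.91 and 6.99 TPM and the phosphatase regulator Pdpr at 39.3 and 35.4. Over all 21 pairs of genes compared, the sign was the same in both libraries.

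**Figure D4:**
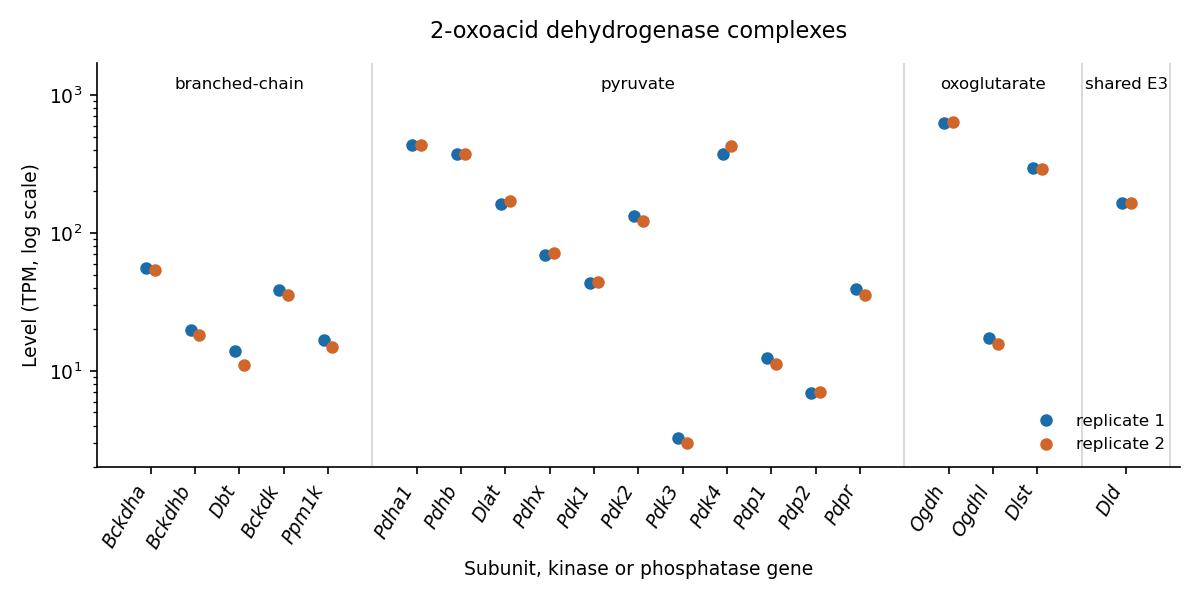
Level (TPM, log scale) of the subunits, kinases and phosphatases of the branched-chain, pyruvate and oxoglutarate dehydrogenase complexes and of their shared E3 subunit, in replicates 1 and 2. The E1 and E2 genes of the branched-chain complex lay between 11.0 and 56.0 TPM, below Pdha1, Pdhb, Dlat, Ogdh and Dlst in both libraries.

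Among 41 listed genes of the pathway and the related complexes, the gene closest in level to each member was found by distance in log2(TPM + 0.1) over the 2 libraries, which can show likeness of level and nothing more. Pdpr was closest to both Bckdk (distance 0.034) and Bcat2 (0.038), Mcee, the epimerase of the propionate steps at 60.9 and 64.4 TPM, was closest to Ivd (0.070), and Ogdhl was closest to Ppm1k. Bcat1 stood farthest from any listed gene, with the transporter Slc43a1 at a distance of 0.527.

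Between the libraries, the genes differed by small amounts. No member differed by 2-fold or more at an adjusted p of 0.05 (exact binomial test on counts scaled with TMM, Benjamini-Hochberg over all 16611 genes tested), against 3.15% of all genes tested. At any ratio, 5 of the 10 differed, against 21.7% of genes. All 5 were lower in replicate 2, a direction called for 11.5% of genes, and none was higher, a direction called for 10.3%. These shares include genes with few counts. When at least 100 counts were required in each library, 3041 of 11416 genes were called at any ratio, the same 5 members among them. Bcat1, with 69 counts in replicate 1, did not enter under this filter, and shares by direction are not given for it. This test compares the reads of these libraries and not conditions, and the median of the members' log2 ratios (replicate 2 over replicate 1) was -0.11, against -0.00 for all genes tested, whose median size was 0.14. When a coefficient of variation of 0.1 between libraries was assumed in the edgeR exact test, 0 members were called at any ratio, and 474 of all genes were.

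The lower genes were spread over the complex, its control and the leucine route. The log2 ratio was -0.25 for Dbt (95% interval -0.37 to -0.13, exact binomial test, adjusted p = 0.000670) and -0.23 for Ppm1k (-0.31 to -0.14, adjusted p = 8.76e-06). For Bckdha it was -0.16 (-0.23 to -0.09, adjusted p = 0.000118) and for Bckdk -0.16 (-0.25 to -0.07, adjusted p = 0.00260), by the same exact test. Ivd, at -0.09 (-0.15 to -0.03, adjusted p = 0.0199, exact binomial test), was called under TMM scaling but not when libraries were scaled by total counts, and its TPM was not lower in replicate 2. The interval included 0 for Bcat1 (0.29, from -0.16 to 0.75), Bckdhb (0.03), Mccc1 (-0.07) and Pcca (-0.06), and Bcat2 (-0.12) missed the threshold at an adjusted p of 0.0775 in the exact test.

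Of the 27 other pathway genes, 5 were lower and 1 higher in replicate 2 at any ratio, and 0 differed by 2-fold. Of all genes tested, 11.5% were lower and 10.3% higher at any ratio, and 3.15% differed by 2-fold. The lower ones were Aldh6a1, Acadsb, Acat1, Echs1 and the mitochondrial branched-chain amino acid carrier Slc25a44, and the higher one was Slc3a2. Echs1 and Slc25a44 are named here after their values were seen. Marker genes of cell types and of the atria moved between the libraries as well, and the same shares of all genes apply to them. Some of these markers had many counts, so that small ratios were called. All 4 atrial markers were lower in replicate 2 by 2-fold or more, with summed levels of 1585 and 492 TPM. The 5 brown adipocyte markers summed to 43.5 and 27.1 TPM, and 4 of the 4 tested were lower. Of the 5 fibroblast markers, 4 were lower (sums of 960.5 and 821 TPM), as were 4 of the 5 endothelial markers (748 and 640.4 TPM) and 4 of the 7 cardiomyocyte markers (37515 and 36232 TPM), of which another 2 were higher. All 5 erythroid markers were lower (27507 and 26546 TPM), with a median log2 ratio of -0.10, and 3 of the 5 macrophage markers were higher (44.2 and 54.8 TPM). The 5 T cell markers were all higher (1.07 and 24.4 TPM), as were the 4 thymus markers tested (0.0700 and 25.9 TPM over 5). The part of these cell types in the members' ratios was not tested.

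**Figure D5:**
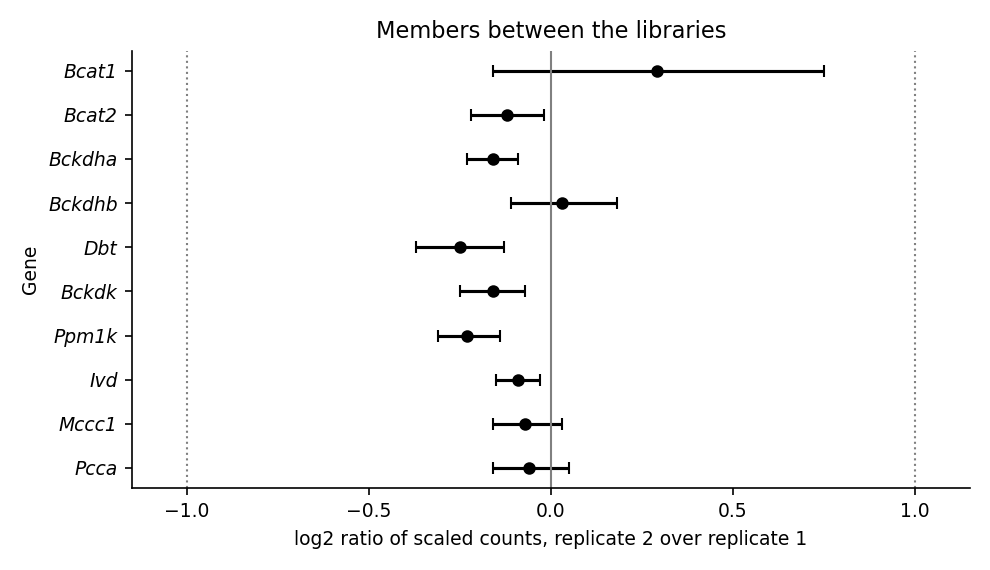
Log2 ratio of scaled expected counts in replicate 2 over replicate 1 for each gene, with exact 95% intervals that cover counting error only; dotted lines mark 2-fold. Of the genes, 8 lay below 0, none reached 2-fold, and the interval was widest for Bcat1.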

How the data were processed

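The authors deposited 3 tables per library: gene and transcript tables with RSEM column names, and a transcript table with kallisto column names. The version of either tool is not given in the sources used here. Expected counts, TPM and posterior mean TPM fill the RSEM-style tables per the file headers, along with the percent of the gene that each transcript makes up. Kallisto-style tables, as deposited, give estimated counts and TPM. According to the authors' readme, deposited values refer to mm10 and annotation M21. GENCODE M21 gave symbols, transcript types and coordinates. The members, lists, pairs and tests were chosen with earlier results of these data known.

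Levels are gene TPM of the RSEM-style tables, ± SD over the 2 libraries. Kallisto-style TPM was summed per gene. Ratios within a library used log2(TPM + 0.1). Between libraries, rounded expected counts with TMM factors (edgeR 4.0.16) were compared by a 2-sided exact binomial test (scipy 1.17.1), with an adjusted p of 0.05 as threshold. Genes entered with 10 counts or more per library, or 20 over both. The test was checked on simulated counts with counting error alone. This check cannot show how the test behaves when libraries vary beyond counting error. The 95% intervals are exact (Clopper-Pearson, or Poisson for a TPM) and cover counting error only. DESeq2 1.42.0 gave alternative size factors. Shared sequence was counted as 31-base words of each leading transcript found in transcripts of other genes, on either strand. Genes named are all members, both genes of each pair, all genes of lists of 4 or fewer, the highest and lowest of the longer pathway lists, and the gene closest in level to a member; 1 listed gene is not reported here. Reads of the CAST/EiJ allele were counted against the C57BL/6J reference, and any effect of this on the levels was not tested.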

Additional observations from a re-analysis of the deposited data

How the results depend on the processing

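No paired analysis was possible because both libraries belong to 1 group. With 2 libraries the SD is itself uncertain, and low counts limit Bcat1. Leaving out a library returns the other library's value, so it says nothing about stability. The median of the members (24.4 TPM) became 31.1 in the kallisto-style tables, 25.6 with posterior mean TPM, 16.2 on protein-coding transcripts and 57.9 when TPM was rescaled over nuclear protein-coding genes. That of the other pathway genes (28.3 TPM) became 38.6, 19.2 on coding transcripts and 67.0 when rescaled. The number of overlapping neighbours in the order, an alternative chosen after seeing the data, was 2 and became 1 in the kallisto-style tables. The median share of the transcript that led in the RSEM-style tables was 64.8%. For the same transcripts it was 61.9% in the kallisto-style tables, where other transcripts led for Bcat1 and Bckdhb.

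Distances between genes moved as follows, in log2 units. Bcat2 over Bcat1 (5.10) was 4.26 in the kallisto-style tables, 4.33 with posterior means, 4.71 on coding transcripts, 4.25 with a pseudocount of 1 and 4.21 by counts not divided by length. Under the same 5 settings, Bckdha over Bckdhb (1.53) was 1.64, 1.48, 1.72, 1.49 and 1.99. Bckdha over Dbt (2.14) was 2.50 in the kallisto-style tables, 2.45 on coding transcripts and 1.56 by counts. Bckdk over Ppm1k (1.23) was 1.82, 1.37 and 0.02 under these settings and 1.18 with a pseudocount of 1. By the mean ratio, order turned in 3 cases: Bckdhb over Dbt by counts (-0.43), and, on coding transcripts, Mccc1 over Mccc2 (-0.31) and Ppm1k over Pdp1 (-0.01). By counts, the order of Bckdk and Ppm1k also differed between the libraries. Bckdk was below Ppm1k in replicate 1 (1994 against 2013) and above it in replicate 2 (2172 against 2098). Length division accounts by construction for the values by counts; the cause of the others was not tested. The 5 members called between libraries at any ratio became 4 with total counts, without Ivd, and 0 with an assumed coefficient of variation of 0.1, where calls over all genes went from 3608 to 474. With DESeq2 or spike-in scaling, other count filters or kallisto-style counts, the same 5 genes were called.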
